A study of Mus musculus with 6 samples.

Results

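A set of 10 genes of the cytotoxic granule were followed in natural killer (NK) cells of fibrotic mouse liver: the granzymes Gzma, Gzmb, Gzmc, Gzmk and Gzmm, the pore former Prf1, the granule genes Srgn and Nkg7, and the protease inhibitors Serpinb9 and Serpinb6b. They were chosen by symbol for their place in the granule, and all 10 were found among the 57180 genes of the deposited table. CD36 is a surface receptor that takes up fatty acids. To ask how CD36 bears on NK function, the study separated hepatic NK cells of mice with fibrosis into CD36+ NK and CD36- NK fractions and sequenced 3 libraries of each. Both groups came from wild-type C57BL/6J male mice of 6 to 8 weeks that had received CCl4, a hepatotoxin, by intraperitoneal injection (2.5 ml/kg of a 20% solution in olive oil, 2 injections per week for 4 weeks), with harvest 48 h after the last dose, so no library of untreated liver stands beside them. NK cells were gated as CD3- NK1.1+. Nothing in the labels or methods says how many animals gave each library, so the spread between libraries, and every p-value built on it, may be partly technical.

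NK cells and cytotoxic T cells store their killing proteins in secretory lysosomes. When the granule fuses with the membrane that faces a target cell, perforin opens pores through which granzymes, a family of serine proteases, reach the cytosol of the target and cleave proteins there. Serglycin, the proteoglycan encoded by Srgn, holds the positively charged granzymes and perforin in the granule through its glycosaminoglycan chains, and serpins of clade B in the killer's own cytosol trap granzyme that has leaked. In the liver, NK cells use this route against activated hepatic stellate cells, the main source of scar collagen.

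Of the 10 genes, 7 were lower in CD36+ NK, none was higher, and Gzmc, Gzmk and Srgn were not called. A gene was called when its fold change exceeded 2 and its adjusted p was below 0.05, by the quasi-likelihood test of edgeR, adjusted after Benjamini and Hochberg over the 14761 genes with enough counts, among them all 10 members. In the same test 2.98% of all genes were called lower and 2.98% were called higher. The median log2 fold change of the 10 members was -2.01, against 0.01 over all genes tested. In the 7 called genes every CD36+ NK library lay below every CD36- NK library, which held for 15.7% of all genes, and in Srgn every CD36+ NK library lay above, which held for 17.0% of all genes. Together the 10 genes took 0.144%, 0.133% and 0.116% of all counts in CD36+ NK replicates 1 to 3 and 0.487%, 0.385% and 0.462% in CD36- NK replicates 1 to 3. Without Srgn these shares were 0.0798%, 0.0750% and 0.0625% against 0.434%, 0.342% and 0.432%. Srgn thus made up a large part of the counts of the set in CD36+ NK and a small part in CD36- NK.

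**Figure D1:**
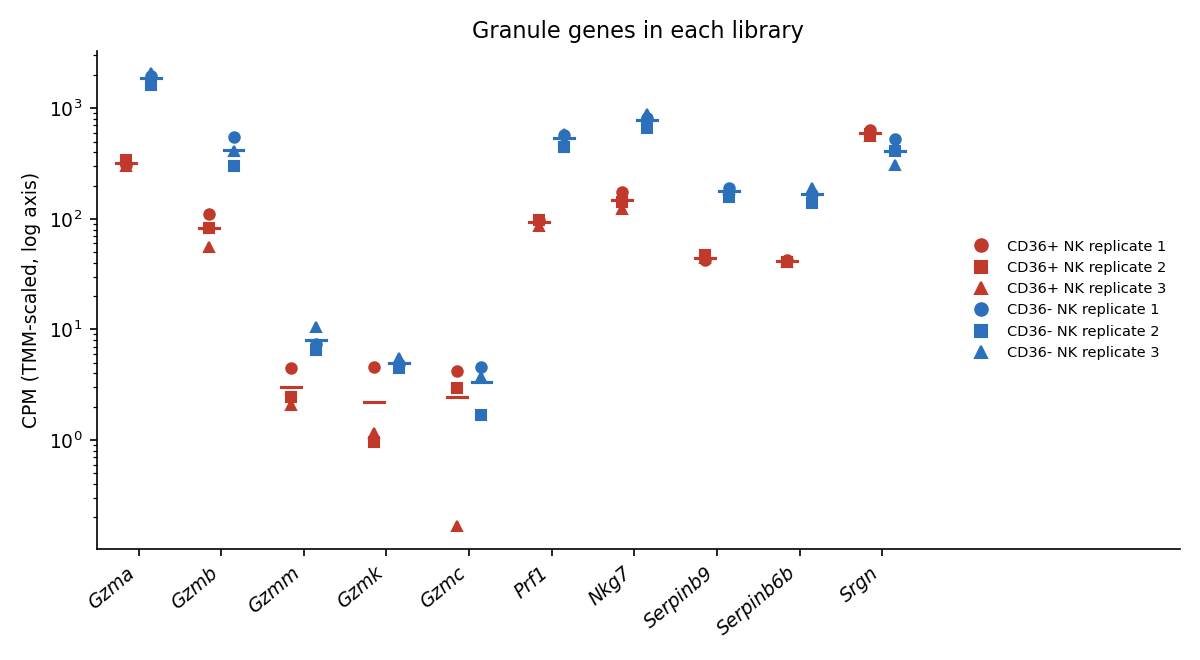
Level of each of the 10 granule genes in each library, in CPM on a log axis, with CD36+ NK in red, CD36- NK in blue, symbols for replicates and a bar for the mean of 3. In Gzma, Gzmb, Gzmm, Prf1, Nkg7, Serpinb9 and Serpinb6b the red points lie below all blue points, in Srgn they lie above, and in Gzmk and Gzmc they overlap.

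NK lineage genes were lower to a like degree, and this stands beside every value that follows. Of 12 such genes, 11 were called lower in CD36+ NK (median log2 fold change -2.26), and their summed level was 855 to 1060 CPM in CD36+ NK against 3950 to 5150 CPM in CD36- NK. Il2rb, a chain of the receptor for interleukin 15, had 305 CPM against 1410 CPM, and Klrb1c, which encodes the NK1.1 antigen used for the gate, 88.9 CPM against 489 CPM. In RNA of a whole fraction, fewer NK cells and less RNA of these genes per cell cannot be told apart. Genes of other cells were also counted. Macrophage and Kupffer cell genes summed to 6560 to 9070 CPM in CD36+ NK and 2420 to 5700 CPM in CD36- NK, with 3 of 9 tested genes called higher and a median log2 fold change of 2.90. Lyz2, the most counted of them, was not called, at 3960 CPM against 3710 CPM (log2 fold change 0.09, edgeR adjusted p = 0.882), and Csf1r was called higher, at 1740 CPM against 467 CPM. Their defining gene Clec4f had 624 counts in CD36+ NK replicate 2, 17 in replicate 1, and 0 in replicate 3 and in every CD36- NK library. B cell genes summed to 3930 to 4360 CPM against 2620 to 3020 CPM, with 0 of 6 called, a median of 0.51 and Cd79a at 1020 CPM against 723 CPM. T cell genes, which the CD3- gate should lack, summed to 301 CPM in CD36+ NK replicate 1, against 25.6 to 45.3 CPM in the other 5 libraries. Cd36 itself had 1232, 3569 and 2859 counts in CD36+ NK and 186, 359 and 175 in CD36- NK (3.27 on the log2 scale, with an SE, the standard error, of 0.426 and edgeR adjusted p = 0.00615). In the library names CD36 is followed by 2 hyphens for samples titled CD36+ NK and by 1 for samples titled CD36- NK. The first form can be read as a minus sign, unlike the title, and the second as a minus sign or a plain hyphen. The sample titles were followed.

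The letters before the start sites of these genes are shown for 6 members, because 5 of the members printed moved together while Srgn did not. The windows are the 250 bases before a RefSeq start site (GRCm38.p6), read 5′ to 3′ on the strand of the gene, and capitals mark matches, on either strand, to the letters GGTGTGA (T-box core), TGTGGT (RUNX), TTCNNNGAA (STAT palindrome), TGANTCA (AP-1) or CCGGAA (ETS core). These are recognition sequences of factor families active in lymphocytes.
Gzma (chr13:113100982-113101231, minus strand): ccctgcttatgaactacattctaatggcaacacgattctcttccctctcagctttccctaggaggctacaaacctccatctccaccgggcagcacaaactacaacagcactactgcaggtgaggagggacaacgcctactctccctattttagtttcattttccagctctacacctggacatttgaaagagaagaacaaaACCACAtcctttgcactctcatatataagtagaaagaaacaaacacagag
Gzmb (chr14:56262335-56262584, minus strand): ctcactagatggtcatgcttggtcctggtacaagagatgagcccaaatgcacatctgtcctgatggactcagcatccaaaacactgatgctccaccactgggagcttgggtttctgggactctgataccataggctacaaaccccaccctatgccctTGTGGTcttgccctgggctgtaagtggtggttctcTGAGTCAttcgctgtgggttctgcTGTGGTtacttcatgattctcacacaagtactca
Prf1 (chr10:61297586-61297835, plus strand): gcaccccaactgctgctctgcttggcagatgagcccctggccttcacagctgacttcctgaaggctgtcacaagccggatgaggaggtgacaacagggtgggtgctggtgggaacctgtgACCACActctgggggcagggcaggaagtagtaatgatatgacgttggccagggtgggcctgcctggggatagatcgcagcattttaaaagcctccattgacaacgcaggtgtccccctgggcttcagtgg
Nkg7 (chr7:43436888-43437137, plus strand): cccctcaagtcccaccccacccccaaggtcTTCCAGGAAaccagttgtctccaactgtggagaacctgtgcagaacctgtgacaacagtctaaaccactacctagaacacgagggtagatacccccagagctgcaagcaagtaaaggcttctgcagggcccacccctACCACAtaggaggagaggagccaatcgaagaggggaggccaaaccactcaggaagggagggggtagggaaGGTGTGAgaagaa
Srgn (chr10:62507758-62508007, minus strand): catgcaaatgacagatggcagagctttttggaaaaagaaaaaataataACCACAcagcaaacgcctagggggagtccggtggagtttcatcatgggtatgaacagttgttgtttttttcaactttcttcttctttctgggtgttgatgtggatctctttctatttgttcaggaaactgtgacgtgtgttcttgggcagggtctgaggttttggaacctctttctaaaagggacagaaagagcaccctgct
Serpinb9 (chr13:33004291-33004540, plus strand): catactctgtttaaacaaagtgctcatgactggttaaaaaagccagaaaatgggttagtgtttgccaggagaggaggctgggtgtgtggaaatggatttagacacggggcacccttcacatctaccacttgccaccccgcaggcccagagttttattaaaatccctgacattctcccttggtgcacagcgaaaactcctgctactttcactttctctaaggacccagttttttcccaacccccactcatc
RUNX letters began 50 bases before the start of Gzma, 130 before that of Prf1, 83 before that of Nkg7 and at 93 and 34 before that of Gzmb, whose AP-1 match began 58 before. Among the 12 windows of the 10 members (Gzmm and Srgn have several start sites), 7 held the RUNX letters, as did 14% of 32851 mouse windows of this length. The T-box letters stood in 3 of the 12 (in 3.33% of all windows), the STAT letters in 2 (7.02%), the ETS letters in 2 (12%) and the AP-1 letters in 1 (6.75%), and no match overlapped another. Srgn, which was not lower, had RUNX letters 202 bases before the start shown. Serpinb9, shown here, and Serpinb6b were called lower and held none of the 5 motifs. Presence of the letters thus did not follow the direction of the difference in these 10 genes, and a match is a string of letters, not a bound site.

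Gzma (ENSMUSG00000023132, chromosome 13, 113230359 to 113237515, minus strand, in the coordinates of the table, which names no build) encodes granzyme A, a tryptase. It had 308, 342 and 301 CPM in CD36+ NK replicates 1 to 3 and 1970, 1610 and 2070 CPM in CD36- NK replicates 1 to 3, where CPM is the count scaled for library size with TMM factors (trimmed mean of M values). The 3 libraries of each group lay close together and far from the other group. The means were 317 ± 21.8 (SD, n = 3) and 1880 ± 240 CPM, a log2 fold change of -2.57 (SE 0.129), or 5.94-fold lower in CD36+ NK (edgeR adjusted p = 0.000428). Gzma was the most abundant member per unit length in both groups, at a mean of 237 FPKM in CD36+ NK and 1440 FPKM in CD36- NK.

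Gzmb (ENSMUSG00000015437, chromosome 14, 56496295 to 56499717, minus strand) encodes granzyme B, which cleaves after aspartate and can activate caspases. It was at 110, 83.1 and 55.7 CPM in CD36+ NK and at 549, 298 and 411 CPM in CD36- NK. Its libraries spread more than those of Gzma within both groups, without overlap between them. The log2 fold change was -2.34 (SE 0.307), 5.05-fold lower, with an edgeR adjusted p of 0.00626.

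Gzmm, Gzmk and Gzmc were scarce in both fractions, and their values rest on few reads. Gzmm (chromosome 10, 79524854 to 79531095, plus strand), a granzyme with a preference for methionine or leucine that is typical of NK cells, had 50, 33 and 25 counts in CD36+ NK and 95, 73 and 107 in CD36- NK. This gave 2.99 ± 1.28 against 8.07 ± 2.11 CPM, a log2 fold change of -1.44 (SE 0.343, edgeR adjusted p = 0.0418), which passed the test with the smallest margin of the 7. It was called in 8 of 15 alternative analyses, and lost the call without CD36+ NK replicate 2 or 3 or CD36- NK replicate 1 or 3. Gzmk (chromosome 13, 113308142 to 113362442, minus strand) encodes a second tryptase, known mainly from T cells. It had 51, 13 and 14 counts in CD36+ NK and 63, 51 and 56 in CD36- NK. CD36+ NK replicate 1 was at the level of the CD36- NK libraries, at 4.54 CPM against 4.51 to 5.47 CPM, while the other 2 were at 0.956 and 1.16 CPM. The log2 fold change was -1.17 (SE 0.561, edgeR adjusted p = 0.243) with all libraries. It was -2.22 (adjusted p = 0.00804) without CD36+ NK replicate 1, where 8 of the 10 members, and 3.64% of all 15208 genes tested, were called lower. The same library carried the T cell genes, with 303 counts of Cd3e against 2 and 1 in the other CD36+ NK libraries and 8, 12 and 9 in CD36- NK, and had neutrophil genes at a summed 2470 CPM against 468 and 509 CPM there and 739 to 1820 CPM in CD36- NK. The part of these genes' cells in its Gzmk level was not tested. Gzmc (chromosome 14, 56468898 to 56472113, minus strand), a chymotrypsin-like granzyme of rodents, had 47, 40 and 2 counts in CD36+ NK and 59, 19 and 38 in CD36- NK. Its groups overlapped, the log2 fold change was -0.45 (SE 0.808, edgeR adjusted p = 0.784), and without CD36+ NK replicate 3 it was 0.10, and no difference was detectable at this depth.

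**Figure D2:**
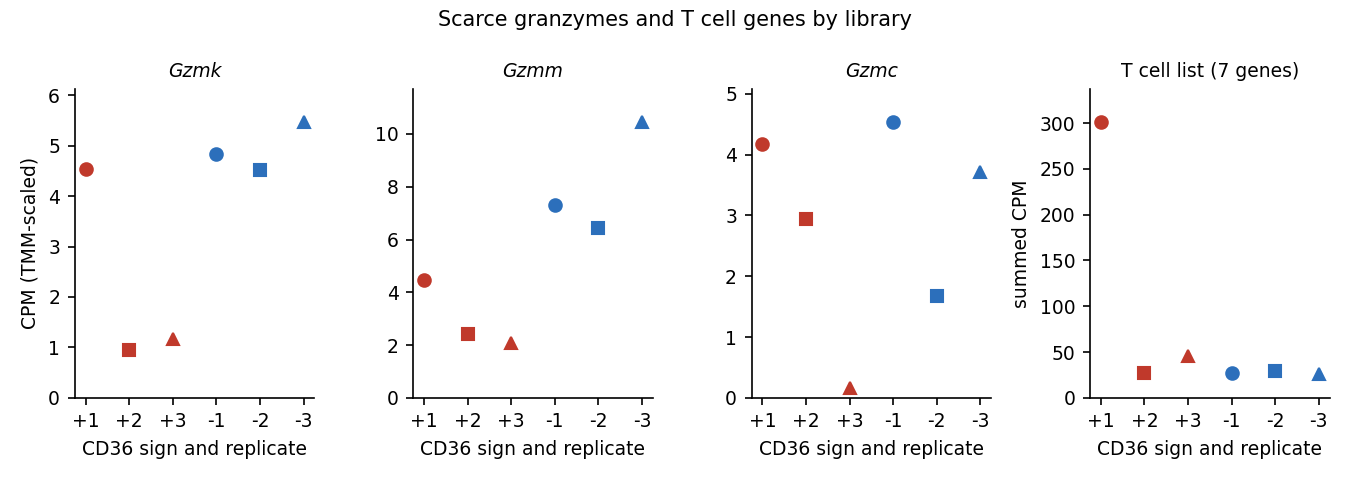
Level in CPM of the 3 scarce granzymes, and summed CPM of 7 T cell genes, in each library, with CD36+ NK in red and CD36- NK in blue on linear axes that start at 0. CD36+ NK replicate 1 has 4.54 CPM of Gzmk and 301 CPM of T cell genes, the latter far above the 25.6 to 45.3 CPM of the other 5 libraries.

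In both fractions Gzma made up most of the granzyme pool and Gzmb most of the rest. By FPKM, which is scaled for gene length and library size, Gzma made up 73.1%, 80.4% and 84.9% of the 5 granzymes in CD36+ NK and 79.2%, 85.0% and 84.0% in CD36- NK (difference -3.27 percentage points, two-sided exact permutation p = 0.6, adjusted over 5 granzymes p = 0.7). Gzmb made up 24.0%, 18.0% and 14.4% against 20.2%, 14.4% and 15.4% (exact permutation p = 0.7, adjusted p = 0.7). The groups overlapped in both. Leaving out 1 library moved the difference of Gzma between -5.97 points (without CD36+ NK replicate 3) and -0.0714 points (without CD36+ NK replicate 1). Gzmm had a larger share in each CD36+ NK library, 0.432% to 0.797% against 0.222% to 0.321%, at the smallest p that 3 against 3 libraries can give (exact permutation p = 0.1, adjusted p = 0.5). Gzmc and Gzmk made up 0.0692% to 1.46% and 0.133% to 0.636% in CD36+ NK and at most 0.269% and 0.141% in CD36- NK, with overlap (exact permutation p = 0.4 and 0.2). No share could have passed 0.05 in this design. The other granzymes of the mouse cluster, Gzmd, Gzme, Gzmf, Gzmg and Gzmn, had 0 counts in all 6 libraries, which allows up to 3 counts, or 0.218 to 0.291 CPM per library, from counting error alone.

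Prf1 (ENSMUSG00000037202, chromosome 10, 61133612 to 61140459, plus strand), the perforin gene, had 96.9, 97.8 and 86.0 CPM in CD36+ NK and 575, 446 and 581 CPM in CD36- NK. The CD36+ NK libraries were nearly level and far below the lowest CD36- NK library. The log2 fold change was -2.51 (SE 0.136), 5.71-fold lower, with an edgeR adjusted p of 0.000428. Perforin and granzyme A messages kept close proportions in the 2 fractions: the ratio of Prf1 to Gzma in FPKM was 0.0934, 0.0850 and 0.0850 in CD36+ NK and 0.0866, 0.0823 and 0.0835 in CD36- NK. Gzma was also the gene whose level ran most nearly with that of Prf1 over the 6 libraries among 10008 genes of at least 10 CPM (Pearson r = 0.9992 of log2 levels), followed by Klrg1 (0.999), an inhibitory receptor, Serpinb9 (0.9983), Atp1b1 (0.9982), a subunit of the sodium pump, and Serpinb6b (0.9981). Nkg7 stood at place 19 and Gzmb at place 266 of that order. These r values are descriptions over 6 libraries in 2 groups, and largely repeat the difference between the groups.

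Nkg7 (ENSMUSG00000004612, chromosome 7, 43086497 to 43087673, plus strand) encodes a membrane protein of the granule that is needed for efficient degranulation. It was at 175, 143 and 123 CPM in CD36+ NK and at 824, 657 and 884 CPM in CD36- NK. These groups were well apart, with a log2 fold change of -2.42 (SE 0.174), 5.36-fold lower, and an edgeR adjusted p of 0.000652. The ratio of Nkg7 to Gzma in FPKM was 0.468, 0.346 and 0.337 in CD36+ NK replicates 1 to 3 and between 0.336 and 0.353 in the CD36- NK libraries.

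The protectors were lower as well. Serpinb9 (ENSMUSG00000045827, chromosome 13, 33187233 to 33201940, plus strand), an inhibitor of granzyme B, had 42.2, 47.1 and 43.9 CPM in CD36+ NK and 190, 156 and 187 CPM in CD36- NK (log2 fold change -2.0, SE 0.109, 4.01-fold lower, edgeR adjusted p = 0.000428). Serpinb6b (ENSMUSG00000042842, chromosome 13, 33149192 to 33163050, plus strand), an inhibitor of granzyme A, had 42.5, 40.8 and 40.4 CPM against 169, 140 and 189 CPM (log2 fold change -2.01, SE 0.125, 4.02-fold lower, edgeR adjusted p = 0.000428). The CD36+ NK libraries were almost level in both genes. Serpinb6b stood to Serpinb9 at 1.58, 1.37 and 1.45 in CD36+ NK and at 1.39, 1.41 and 1.59 in CD36- NK, in FPKM. The 2 genes lie 24.2 kb apart, and both belong to families of similar copies between which reads may have been divided, which leaves their exact levels uncertain.

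Srgn (ENSMUSG00000020077, chromosome 10, 62329612 to 62363230, minus strand), which blood cells of many kinds express, went its own way. It was at 636, 585 and 558 CPM in CD36+ NK and at 524, 413 and 305 CPM in CD36- NK. Every CD36+ NK library was above every CD36- NK library, yet the difference of 0.52 on the log2 scale (SE 0.190, 1.43-fold, unadjusted p = 0.0288, edgeR adjusted p = 0.135) did not pass the test. In 15 alternative analyses its log2 fold change ran from 0.33 to 0.71 and it was called in 0. Srgn stood to Gzma at 0.700, 0.581 and 0.630 in CD36+ NK and at 0.0902, 0.0870 and 0.05 in CD36- NK, in FPKM. The genes whose level ran most nearly with Srgn over the 6 libraries were Pdia6 (Pearson r = 0.9987), a disulfide isomerase of the endoplasmic reticulum, Rtcb (0.9905), an RNA ligase, Gm9843 (0.9902), Capg (0.989), an actin-capping protein of myeloid cells, and Pou2af1 (0.9885), a coactivator of B cells, with log2 fold changes of 0.19 to 0.48. With Prf1 its r was -0.761. The part that macrophages and B cells had in the Srgn level was not tested: 3 of 9 tested macrophage genes and 0 of 6 B cell genes were called higher, and the summed level of both lists was above that of every CD36- NK library in each CD36+ NK library.

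**Figure D3:**
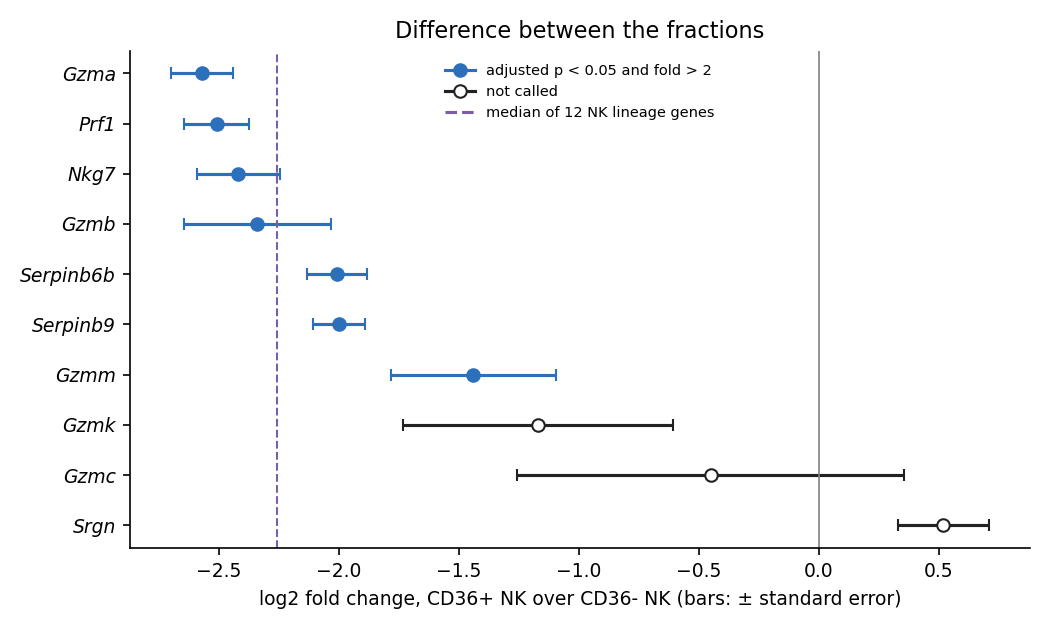
Log2 fold change (CD36+ NK over CD36- NK) of the 10 genes with its SE from edgeR, filled where called, and the median of 12 NK lineage genes as a dashed line at -2.26. Gzma, Prf1, Nkg7, Gzmb and both serpins lie between -2.57 and -2.0, Gzmm, Gzmk and Gzmc nearer to 0, and Srgn at 0.52.

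Per unit length, the order of the members differed between the fractions in the place of Srgn and in that of Gzmm and Gzmc, whose libraries overlapped. In CD36- NK the mean level fell from Gzma (1440 FPKM) through Nkg7 (498), Gzmb (295), Prf1 (121), Srgn (108), Serpinb6b (43.0), Serpinb9 (29.3), Gzmm (4.66) and Gzmc (3.73) to Gzmk (2.24). In CD36+ NK Srgn (150 FPKM) came second, after Gzma (237) and before Nkg7 (90.8), Gzmb (57.3), Prf1 (20.8), Serpinb6b (10.4), Serpinb9 (7.12), Gzmc (2.72), Gzmm (1.70) and Gzmk (0.992). The libraries of Prf1 and Srgn overlapped in CD36- NK, as did those of Gzmc with Gzmm and Gzmk. In CD36+ NK the libraries of Gzmb and Nkg7 overlapped, as did those of the 3 scarce granzymes.

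Set against the NK lineage genes of the same library, the granule genes split into groups. The mean log2(CPM + 2) of the 12 lineage genes was 6.04, 6.13 and 5.83 in CD36+ NK and 8.08, 8.01 and 8.39 in CD36- NK, a difference of -2.16 (exact permutation p = 0.1, the smallest possible). Relative to it, Gzma was at 2.24, 2.29 and 2.41 in CD36+ NK and at 2.87, 2.65 and 2.62 in CD36- NK, a difference of -0.40, and Prf1 at 0.59, 0.51 and 0.63 against 1.09, 0.80 and 0.80, a difference of -0.32. In both, every CD36+ NK library was the lower (exact permutation p = 0.1, adjusted over 10 members p = 0.167). Gzmb (-0.16), Nkg7 (-0.25), Serpinb9 (0.21) and Serpinb6b (0.21) overlapped between the groups, with exact permutation p-values of 0.6, 0.3, 0.3 and 0.2. Srgn was at 3.28, 3.07 and 3.30 against 0.96, 0.69 and -0.13, a difference of 2.71, and lay above in every CD36+ NK library (exact permutation p = 0.1, adjusted p = 0.167). Gzmm, Gzmk and Gzmc were also above, by 1.13, 1.34 and 1.81. The size for these low genes depends on the pseudocount, being 0.86, 0.95 and 1.49 with 0.5 in place of 2, and Gzmc then overlapped between the groups (exact permutation p = 0.3). Values without a pseudocount were not computed. For Gzmk, the edgeR log2 fold change without CD36+ NK replicate 1 was -2.22, near the lineage median of -2.26 with all libraries. With Ncr1 alone as the reference in place of the list, the difference of Gzma was -0.14 and that of Prf1 -0.06 (exact permutation p = 0.4 and 0.7), so the lower relative level of both rests on the choice of reference. With that reference the differences of Serpinb9 and Serpinb6b were 0.47 and 0.47 (exact permutation p = 0.1 and 0.2), and those of Gzmb and Nkg7 turned to 0.11 and 0.01 (exact permutation p = 0.7 and 1.0). The difference of Gzmb also turned to 0.01 without CD36+ NK replicate 3 and to 0.10 without CD36- NK replicate 1.

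**Figure D4:**
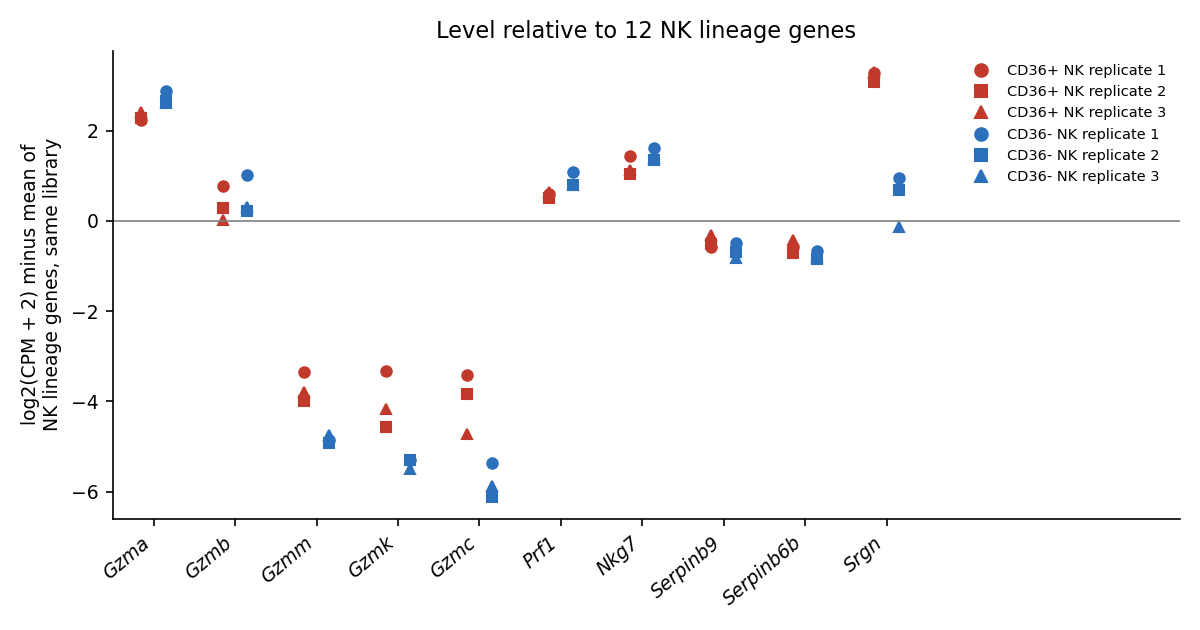
Level of each granule gene, as log2(CPM + 2), minus the mean of 12 NK lineage genes in the same library, with CD36+ NK in red and CD36- NK in blue. Gzma and Prf1 lie slightly lower in CD36+ NK, Gzmb, Nkg7 and the serpins overlap, and Srgn and the scarce granzymes lie higher. The size for the scarce granzymes depends on this pseudocount of 2, and Gzmc overlaps at 0.5. With Ncr1 alone as reference Gzma and Prf1 differ by -0.14 and -0.06.

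Of 49 further genes that make, load, move or release the granule, 48 had a row in the table, 34 were tested, and 6 were called lower and 2 higher in CD36+ NK, beside the 2.98% of all genes called in each direction. Their median log2 fold change was 0.02. Sytl2 and Sytl3, synaptotagmin-like effectors of RAB27A, were at 16.4 ± 4.26 against 79.2 ± 16.3 CPM and at 31.8 ± 7.44 against 164 ± 33.9 CPM, log2 fold changes of -2.27 and -2.37 (edgeR adjusted p = 0.00273 and 0.0016). The other 11 tested genes of movement and release were not called. Among them Coro1a, an actin regulator and the most counted, had a log2 fold change of 0.09 (adjusted p = 0.692), and Rab27a and Unc13d, needed for docking and priming, had -0.84 and -0.44 with adjusted p-values of 0.0231 and 0.0201 but folds under 2. Those of the vesicle fusion genes Stx11, Stxbp2, Vamp8 and Snap23 ran from -0.20 to 0.31.

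Among genes that process granule enzymes, Cst7, which encodes cystatin F, an inhibitor of the cathepsins that activate granzymes, was at 11.4 ± 4.50 against 51.8 ± 6.53 CPM, a log2 fold change of -2.19 (edgeR adjusted p = 0.00572). Ctsc, the peptidase that activates progranzymes, was at 533 ± 135 against 303 ± 65.0 CPM, with a log2 fold change of 0.81 (adjusted p = 0.0626), and was not called. Ctsh, another cathepsin, had 0.56 (adjusted p = 0.0398) at a fold under 2. Ctsl, another lysosomal protease, was higher, with a log2 fold change of 1.26 (adjusted p = 0.00717). None of 7 genes of the granule membrane and sorting was called. Igf2r, a receptor that sorts lysosomal enzymes, was at 58.9 ± 2.63 against 111 ± 15.3 CPM, with a log2 fold change of -0.91 (edgeR adjusted p = 0.00584) at a fold under 2, and Lamp1, the marker that reaches the cell surface on degranulation, had a log2 fold change of 0.63 (adjusted p = 0.0812). Lysosomal genes are also strong in macrophages, of whose 9 tested marker genes 3 were called higher in CD36+ NK, and the part of those cells was not tested.

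Among the other clade B serpins, Serpinb9b, which lies 9.46 kb from Serpinb9, was at 6.21 ± 0.236 against 36.2 ± 7.28 CPM (log2 fold change -2.54, edgeR adjusted p = 0.000596), and Serpinb6a was at 62.6 ± 25.3 against 20 ± 3.92 CPM (log2 fold change 1.65, adjusted p = 0.0166). Paralogs of Serpinb9 and Serpinb6b were thus called in opposite directions. Of 11 such serpins 3 were tested and 7 had 0 counts in every library. Srgn carries chondroitin sulfate chains in lymphocytes, and of 7 tested genes for such chains Chsy1, a chondroitin synthase, and Chst11, a sulfotransferase, were lower, with log2 fold changes of -1.48 and -1.35 (edgeR adjusted p = 0.00158 and 0.0104). B4galt7, which adds the first galactose of the linker, had -0.96 (adjusted p = 0.00307), and Chst15, which adds a further sulfate, had 0.66 (adjusted p = 0.015), both at a fold under 2. Of the 7 chain genes 2 were thus lower and 5 not called, beside a core protein message that was not called. Which cells these messages came from was not tested.

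**Figure D5:**
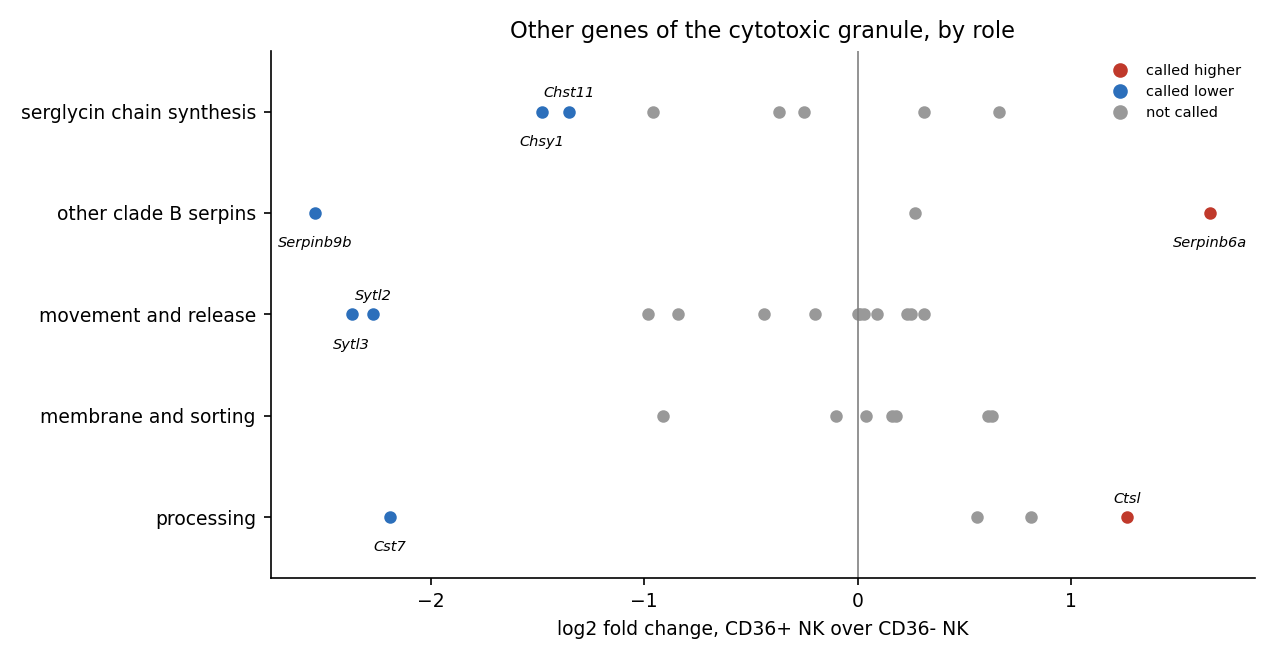
Log2 fold change (CD36+ NK over CD36- NK) of the 34 tested genes of the granule by role, 1 point per gene, blue where called lower, red where called higher and grey where not called. Most points lie near 0, and the called genes are Sytl2, Sytl3, Serpinb9b, Cst7, Chsy1 and Chst11 on the lower side and Ctsl and Serpinb6a on the higher side.

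The names of the libraries come in 2 forms, lower case for replicate 1 of each group and capitals for replicates 2 and 3, and what the forms stand for is not stated. Within the lower-case pair and within the capitals, the log2 fold change was -2.67 and -2.50 for Gzma, -2.29 and -2.33 for Gzmb, -2.54 and -2.45 for Prf1, -2.22 and -2.50 for Nkg7, -2.12 and -1.87 for Serpinb9 and -1.94 and -1.95 for Serpinb6b. It was 0.28 and 0.68 for Srgn. For Gzmm it was -0.53 and -1.27, for Gzmk -0.07 and -1.19 and for Gzmc -0.08 and -0.49. These within-form values are differences of mean log2(CPM + 2) without a test, since the lower-case form holds 1 library per group. Adding 2 CPM shrinks them for scarce genes. With the capitals alone edgeR gave -1.91 for Gzmm, -2.24 for Gzmk and -0.76 for Gzmc.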

How the data were processed

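The authors filtered reads with Seqtk, mapped them with HISAT2 2.0.4, obtained fragment numbers of genes from StringTie and deposited raw counts and FPKM for 57180 genes. The kit's strandedness and the genome build of the table are not given in the sources used here; the submitters' processing notes name a rat assembly (mRatBN7.2), while the gene identifiers are those of mouse. Gzmk and Srgn overlap genes on the other strand, which had at most 28 counts over all libraries. Table columns were matched to samples by library name, and groups follow the sample titles. The lines of 2 genes were rejoined.

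Libraries held 10292480 to 13787189 counts. Genes passing edgeR's filterByExpr (minimum count 10) were tested with the quasi-likelihood test (edgeR 4.0.16, R 4.3.3, TMM, no block), and the biological coefficient of variation was 20.3%. SE is the size of the log2 fold change over the square root of F. FPKM served for levels between genes and ratios. Single values were compared by two-sided exact permutation over libraries, levels as log2(CPM + 2) and granzyme shares as percent of summed FPKM. Their p-values were adjusted after Benjamini and Hochberg with scipy 1.17.1. Floors of 3 counts cover counting error only. Replicates differed by a chi-square per degree of freedom of 14.8 to 29.2, more than counting error gives, so all 6 libraries were kept as separate ones; this does not show that they are separate animals or preparations. On simulated counts of this comparison (14550 genes) 98.5% of 200 changed genes and 4 others were called. The changed genes had log2 fold changes of 2 in either direction, and all genes shared a single dispersion. Smaller changes and more variable genes were therefore not covered.

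The members, gene lists, motifs and tests were chosen with earlier results of these data known. Named genes are the 10 members, Cd36, the called genes of each granule list (at most 4 per direction) or else its most counted gene, the 2 most counted genes of each marker list, and the 5 genes most like Prf1 and Srgn. A gene that this rule names is not reported here. Others (Cd3e, Clec4f, Coro1a, Ctsc, Rab27a, Unc13d, Igf2r, Ctsh, B4galt7, the fusion genes, Chst15, Xcr1, Clec9a and genes at 0) were named after their values were seen. Vamp7 had no row by that symbol. Ratios between members were added after the values were seen. Alternatives were DESeq2 1.42.0, its size factors, the exact test of edgeR, upper-quartile scaling, other filters, no fold threshold, blocks, the pseudocount, the reference gene and each library left out.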

Additional observations from a re-analysis of the deposited data

How the results depend on the processing

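Gzma, Gzmb, Prf1, Nkg7, Serpinb9 and Serpinb6b kept their direction and their call in all 15 alternatives, and the number of members called was 6 to 8 in 16. Gzmm lost its call without a filter on low counts (log2 fold change -1.42, edgeR adjusted p = 0.0579), with the capitals alone (-1.91, 0.0606) and with the replicate block (-1.46, 0.0806), and when a library was left out its log2 fold change ran from -1.84 to -1.21. Gzmk was called with the capitals alone (-2.24, 0.0395), and its log2 fold change ran from -2.22 to -0.80 when a library was left out; Gzmc ran from -1.07 to 0.10. The cause was not tested. With Ncr1 as reference the differences of Gzmb and Nkg7 relative to NK genes turned to 0.11 and 0.01. That of Gzmb ran from -0.37 to 0.10 when a library was left out, and its granzyme share difference from -0.472 to 4.33 percentage points. Without a fold threshold 14 of the 34 granule genes were called in both directions together, against 8. The share of all genes called without that threshold was not computed, so this count has nothing to be read against. Libraries with the same number in their titles had correlated deviations of 0.367, 0.0871 and -0.086. With so few libraries this cannot tell whether the numbers pair them, and the replicate block gave 6 members. Gzmc could not be fitted with at least 10 counts in every library. With 3 libraries per group no exact test could pass 0.05, and counts near those of Gzmc could not resolve small differences.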

Other observations

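The remaining lists of marker genes are given as values. ILC1 genes summed to 124 to 273 CPM in CD36+ NK and 231 to 328 CPM in CD36- NK, with 0 of 7 called at adjusted p below 0.05 and fold above 2, a median log2 fold change of -0.59, Tcf7 at -1.26 and Inpp4b at 0.63. Mast cell and basophil genes, other cells with serglycin-rich granules, summed to 47.6 to 95.4 CPM against 111 to 126 CPM, with 1 of 6 tested genes called lower (Kit, log2 fold change -1.15), Hdc at 0.12, and 7 counts of Mcpt4 and 1 of Tpsb2 in all. Neutrophil genes had 0 of 8 called and a median of 0.59, with S100a9 at -0.36 and S100a8 at -0.24. Monocyte genes had 1 of 7 called lower and a median of -1.0, with Plac8 at 0.47 and Chil3 at -0.70. Erythroid genes had 3 of 5 called higher and a median of 1.82, with Hbb-bs at 2.11 and Hba-a1 at 2.07. Conventional dendritic cell genes had 2 of 5 called higher (Xcr1 at 2.46 and Clec9a at 2.03) and a median of 0.56, with Flt3 at 0.56 and Cd209a at -0.17. Plasmacytoid dendritic cell genes had 0 of 5 called, with Tcf4 at 0.19 and Bst2 at 0.38. The T cell list had Cd4 and Cd8a called higher, at 2.34 and 3.17, with Cd3e not called. Hepatocyte genes summed to at most 11.8 CPM and stellate cell genes to at most 20.3 CPM in a library. Sinusoidal endothelial genes summed to 33.8 to 91.5 CPM in CD36+ NK and 3.52 to 18.4 CPM in CD36- NK. No gene of these lists was called (no hepatocyte gene was tested).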
